A study of Homo sapiens with 20 samples.

Results

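ATM, CHUK, IKBKB, IKBKG, ERC1, MAP3K7, TAB1, TAB2, TRAF6 and RIPK1 encode proteins that pass a DNA damage signal from the nucleus to the IκB kinase (IKK) complex. They were chosen by name and looked up by symbol in the deposited table of RNA-seq read counts. Of the 10 names, 9 were matched, out of 20314 genes in the table. IKBKG was matched by no symbol and is not analysed here. All 9 matched genes also passed the filter on low counts, which left 14992 genes for testing.

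The RNA came from U2-OS cells, an osteosarcoma line, grown in DMEM with serum and sequenced in 4 groups of 5 replicates. One group was left untreated. Cells of another pair of groups received 20 Gy of irradiation (IR) and were harvested either 1.5 h or 7 days later. The last received no irradiation and carried an shRNA against NFKBIA, the gene of IκBα. The paper's figure legends refer this knockdown to a line whose shRNA is induced by doxycycline. By the methods, clones were selected with puromycin, and scrambled shRNA lines given doxycycline were the usual control. None of the 20 libraries is labelled as such a control, and the untreated labels mention no vector and no doxycycline. The knockdown, the clone and the drug therefore cannot be told apart here. The paper calls the replicates of the untreated and irradiated groups biological. The labels do not say how the cultures were kept apart, and p values measure the spread between these libraries.

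The total counts lay between 22535659 and 40390961 in the untreated libraries and between 34345867 and 39546228 at 1.5 h. They lay between 27547705 and 34307447 at 7 days and between 26693224 and 33461262 in the knockdown. Of the sequencing lanes that the labels name, lane 2 held untreated replicates 1 to 4 and nothing else. Lane 3 held untreated replicate 5 with 3 of the 1.5 h libraries, lane 4 held 2 libraries of each irradiated group, lane 5 held 3 libraries of 7 days with 1 of the knockdown, and lane 6 held 4 of the knockdown. Lane and group can hence be separated for the untreated cells only through untreated replicate 5.

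That library stood apart from the others of its group. It had the lowest total of all 20 libraries, 22535659 counts, and a median correlation of 0.9785 with the log2 levels of the other untreated libraries. For the other 19 libraries this correlation with their own group was 0.9892 or more. In untreated replicate 5, 1036 genes, or 6.91% of those tested, lay more than 2-fold from the median of the group. The next was untreated replicate 4 with 232 genes (1.55%). For members whose test or call changed when this library was left out, both values are given.

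Marker genes were read as a check of the label. Of 9 genes of the osteoblast lineage, SPARC and COL1A1 were the most abundant, with 2140 ± 82.8 and 1970 ± 247 CPM in untreated cells (SD, n = 5). CPM are counts scaled to library size. RUNX2, the master regulator of the lineage, was at 116 ± 51.5 CPM, whereas SP7 and IBSP had 3 counts or fewer in every library and COL1A2 was at 0.411 ± 0.0902 CPM (SD, n = 5). The mesenchymal marker VIM stood at 2400 ± 392 CPM. The summed level of 3 epithelial markers was between 5.12 and 6.69 CPM in untreated cells, between 2.99 and 3.59 CPM at 7 days and between 3.11 and 3.81 CPM in the knockdown. Osteoblast markers differed between groups in different directions. COL1A1 was at 617 ± 35.8 CPM in the knockdown, where SPARC was at 2170 ± 50 CPM, while at 7 days SPARC was at 1270 ± 85.8 CPM and SPP1 at 74.3 ± 5.28 CPM, beside 12 ± 3.07 CPM in untreated cells (SD, n = 5). CDH5, an endothelial marker, did not exceed 0.233 CPM, and PECAM1 is not analysed here.

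ATM is a kinase that is switched on at DNA double-strand breaks. Part of it leaves the nucleus together with IKKγ, the product of IKBKG, after which ATM, TRAF6 and ubiquitin chains help to bring the TAK1 kinase (MAP3K7) with its partners TAB1 and TAB2 to the IKK complex, where ERC1 (also known as ELKS) and RIPK1 act as further adaptors. The IKK complex holds the kinases IKKα (CHUK) and IKKβ (IKBKB), which mark IκBα for destruction and so set NF-κB free. The activity of these proteins is controlled mainly by modification and assembly, so that mRNA levels describe the supply of components and not their activity.

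Promoter sequences were taken from the RefSeq table of GRCh38.p14, 250 bases before to 50 bases after a gene's start. For 8 of the 9 genes, all but IKBKB, 13 windows were searched on both strands. The NF-κB binding consensus (κB) occurred in 2 windows, 1 of ERC1 and 1 of TAB2, and in 10.8% of 27305 promoters (1 window per gene). The E2F motifs TTTCCCGC and TTTGGCGC occurred in no window of the members, and in 1.66% and 0.659% of all promoters. CCAAT occurred in 35.7% of all promoters and, among the members, in windows of ATM, ERC1, TAB2 and RIPK1. Shown are the windows of ERC1 and TAB2 that held the κB consensus, and those of CHUK and of the first RIPK1 start, genes whose libraries at 1.5 h post-IR all lay above the untreated ones. Capitals mark κB and CCAAT matches of either strand, and some of the κB matches in TAB2 overlap one another. The windows are chr12:990973-991272 on the + strand (ERC1), chr6:149318050-149318349 on the + strand (TAB2), chr10:100229547-100229846 on the - strand (CHUK) and chr6:3063717-3064016 on the + strand (RIPK1).
ERC1: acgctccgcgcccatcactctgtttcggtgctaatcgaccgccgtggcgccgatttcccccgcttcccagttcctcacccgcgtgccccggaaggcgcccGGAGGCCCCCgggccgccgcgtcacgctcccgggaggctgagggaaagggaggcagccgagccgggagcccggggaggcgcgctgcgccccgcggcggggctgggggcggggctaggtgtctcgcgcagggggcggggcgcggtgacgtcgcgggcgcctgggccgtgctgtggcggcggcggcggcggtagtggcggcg
TAB2: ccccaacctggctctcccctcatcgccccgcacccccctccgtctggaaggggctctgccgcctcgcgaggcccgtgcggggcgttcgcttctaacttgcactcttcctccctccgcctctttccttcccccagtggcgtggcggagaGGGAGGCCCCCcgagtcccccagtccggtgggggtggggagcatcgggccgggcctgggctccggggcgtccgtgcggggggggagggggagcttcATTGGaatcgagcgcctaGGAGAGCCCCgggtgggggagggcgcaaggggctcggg
CHUK: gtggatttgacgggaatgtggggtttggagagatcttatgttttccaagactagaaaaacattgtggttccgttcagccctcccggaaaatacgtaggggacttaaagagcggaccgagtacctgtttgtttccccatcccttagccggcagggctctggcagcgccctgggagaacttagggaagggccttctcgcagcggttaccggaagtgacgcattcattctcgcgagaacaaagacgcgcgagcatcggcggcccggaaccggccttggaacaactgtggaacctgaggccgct
RIPK1: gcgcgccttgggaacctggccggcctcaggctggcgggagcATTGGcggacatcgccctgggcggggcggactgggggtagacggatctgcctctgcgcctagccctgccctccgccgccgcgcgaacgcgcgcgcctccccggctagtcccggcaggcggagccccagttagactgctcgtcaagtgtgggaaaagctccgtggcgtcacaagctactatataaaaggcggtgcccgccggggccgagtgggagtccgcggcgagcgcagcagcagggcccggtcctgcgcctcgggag

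The targeted gene was read first. NFKBIA (ENSG00000100906) was at 28.6, 23.5, 27.4, 35 and 42.0 CPM in untreated replicates 1 to 5 and at 13, 11.2, 12.1, 12 and 12.4 CPM in those of the knockdown. Every knockdown library thus lay below every untreated library, as the label says. Its log2 fold change was -1.36 (SE 0.11, adjusted p = 4.87e-09, edgeR), and -1.25 without untreated replicate 5. Fewer cells with NFKBIA mRNA and less of it per cell cannot be told apart in bulk RNA, which holds for every gene here. At 1.5 h NFKBIA was at 88.3, 76.3, 80.0, 78.8 and 87.0 CPM, and at 7 days at 30.4, 28.4, 32.4, 32.0 and 30.5 CPM, within the untreated range.

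Markers of the irradiation response were read next to it. CDKN1A, which encodes the cell cycle inhibitor p21, had 225 ± 17.2 CPM without treatment, 690 ± 24.3 CPM at 1.5 h post-IR, 816 ± 13.3 CPM at 7 days and 260 ± 13.4 CPM in the knockdown (SD, n = 5). MKI67, a gene of cycling cells, was at 657, 768, 801, 434 and 1820 CPM in untreated replicates 1 to 5 and between 255 and 279 CPM at 7 days. The MKI67 value of untreated replicate 5 was the highest of all 20 libraries, but other markers of cycling cells did not follow it. In that library CCNB1 was lowest of its group, at 296 CPM beside 414 to 558 CPM, and TOP2A, at 876 CPM, and CDK1, at 219 CPM, lay within the range of the other 4.

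Levels of the members were compared with each other per length, as CPM per kb of the gene length in the deposited table. In untreated cells TAB2 was highest with 37.5 ± 14.8, followed by ERC1 (16.9 ± 4.63), TAB1 (14 ± 0.494), RIPK1 (10.7 ± 0.374), MAP3K7 (8.77 ± 0.665), ATM (6.79 ± 1.44), CHUK (6.23 ± 1.23), TRAF6 (5.69 ± 1.07) and IKBKB (3.92 ± 0.677 CPM per kb, SD, n = 5 each). The neighbours ERC1 and TAB1, and the run of ATM, CHUK and TRAF6, differed by less than their spread. Within a group the spread was small outside the untreated cells. The median coefficient of variation of the 9 genes was 18.7% in untreated cells, 3.94% at 1.5 h, 2.82% at 7 days and 3.03% in the knockdown, next to 15.5%, 5.78%, 4.46% and 5.15% for all genes tested. TAB2 had the widest spread with 39.5% in untreated cells. Without untreated replicate 5 it was at 7.08%, ATM and ERC1 were widest with 22.9% and 21.3%, and the median of the 9 genes was 7.08%, next to 10.6% for all genes tested.

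**Figure D1:**
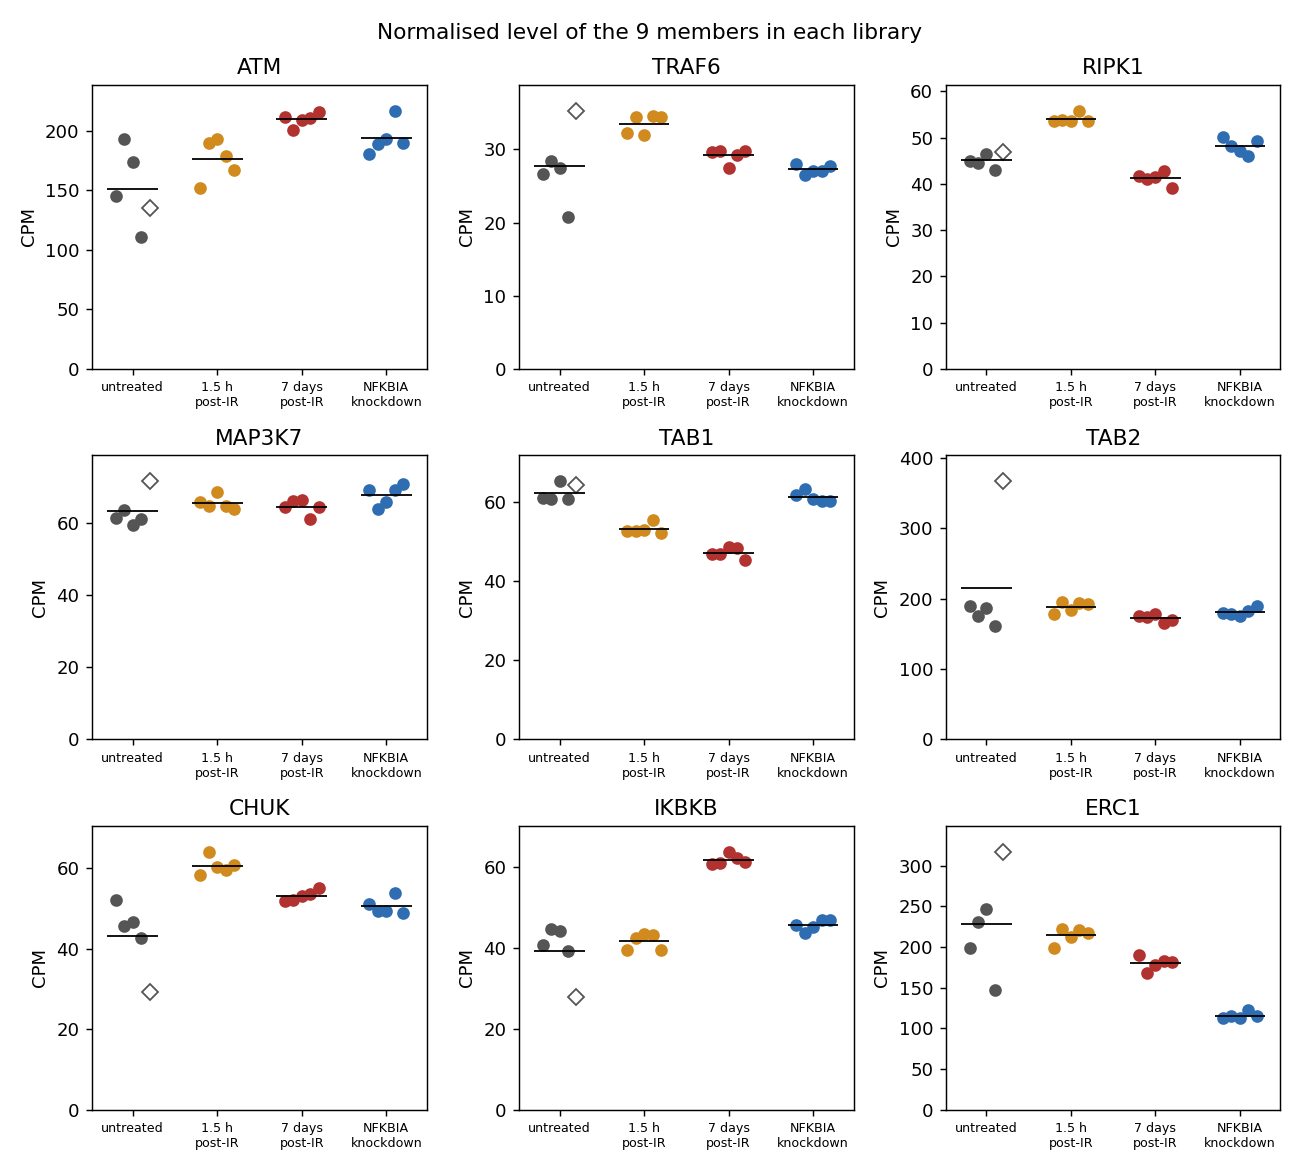
Level of each member in CPM (vertical axes, from 0) in the 5 libraries of each group, with a line at the group mean. The open diamond is untreated replicate 5, which lay lowest of its group for CHUK and IKBKB and highest for TAB2 and ERC1.

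In untreated replicate 5, 5 members stood above all other untreated libraries and 2 below all of them. The share of all genes with such a place in this library was not worked out, so the counts describe no trait of the members. TAB2 was 2.03 times the median of the other 4 libraries, ERC1 1.48 times, TRAF6 1.31 times, MAP3K7 1.17 times and RIPK1 1.05 times. CHUK was at 0.633 and IKBKB at 0.655 of that median. ATM and TAB1 lay within the range of the other 4. The part of depth and lane in these values was not tested.

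Each comparison was tested with edgeR over all genes. A gene passed the test at an adjusted p under 0.05, and counted as called where, in addition, the log2 fold change exceeded 0.5 in size. At 1.5 h post-IR, 3 members rose and 1 fell, so that 4 of 9 passed, where 21.3% of all genes tested did. The number called higher was 0 and called lower 0, against 2.08% and 1.57% of all genes, and the numbers were also 0 at an unadjusted p and with DESeq2. The median log2 fold change of the members was 0.077, and that of all genes was -0.026.

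At 7 days post-IR, 3 members rose and 3 fell, 6 of 9, beside 64.2% of all genes. One gene, IKBKB, was called higher and 0 were called lower, where 16.7% and 14.4% of all genes were. The median log2 fold change was 0.026 for the members and 0.012 for all genes. In the knockdown 2 members rose and 1 fell, 3 of 9, beside 40.5% of all genes. The number that rose there depended on the processing, with 5 under upper-quartile factors or library size alone and 0 when only the groups compared were fitted. No member was called higher and 1, ERC1, was called lower, where 5.18% and 7.53% of all genes were. At an unadjusted p and with DESeq2 the number called higher was 0 as well. The medians were 0.094 and -0.008.

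These 3 comparisons share their untreated libraries. Between 7 days and 1.5 h post-IR, 2 members were higher and 3 lower at 7 days, 5 of 9, beside 60.9% of all genes. One member, IKBKB, was called higher and 0 lower, against 16.8% and 12.6% of all genes. The number that passed depended on the fit. With only these groups fitted, and also within lane 4, 2 members were higher and 6 lower. Between 7 days and the knockdown, 2 members were higher and 2 lower at 7 days, 4 of 9, beside 57.4% of all genes, with 1 (ERC1) called higher and 0 lower, against 15.8% and 9.89%. With only these groups fitted, 4 members were higher and 3 lower. TRAF6 (0.095, adjusted p = 0.0275, edgeR) and TAB2 (-0.064, adjusted p = 0.0475, edgeR) were then among those that passed. The share of all genes that passed in such separate fits was not worked out.

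**Figure D2:**
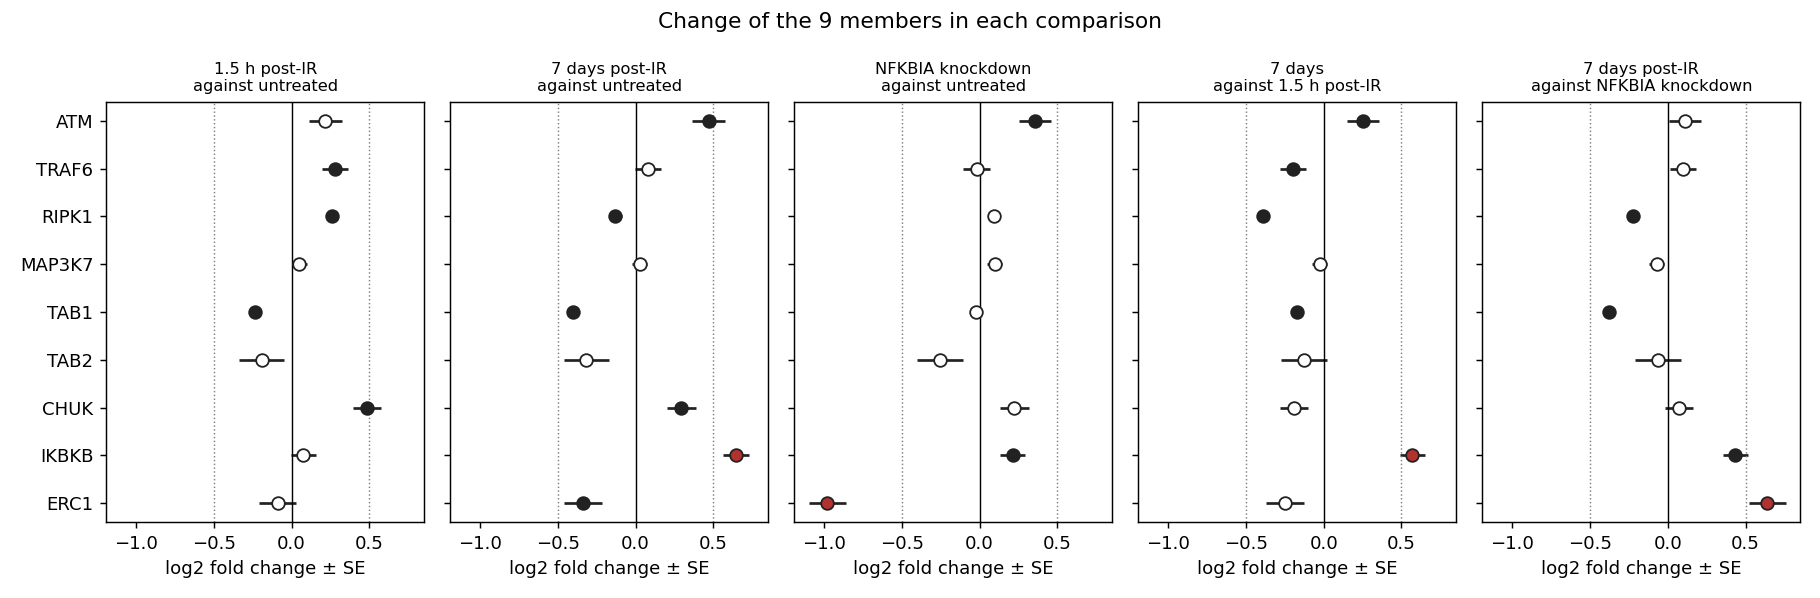
Log2 fold change of each member (horizontal axes) with its standard error in 5 comparisons. Open points did not pass the test, black points passed it, red points also exceeded 0.5 in size (dotted lines), as IKBKB did at 7 days (0.65) and ERC1 in the knockdown (-0.98).

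ATM (ENSG00000149311), the sensor kinase at the head of the pathway, was most even 7 days after irradiation. Its levels were 145, 193, 174, 111 and 135 CPM in untreated replicates 1 to 5, and 212, 201, 209, 211 and 216 CPM at 7 days. Every library at 7 days was above every untreated library. ATM rose by a log2 fold change of 0.47 (SE 0.10, adjusted p = 0.000536, edgeR; two-sided exact permutation p = 0.00794, the lowest possible with 5 against 5 libraries). At 1.5 h it was at 152, 190, 193, 179 and 167 CPM, which overlapped the untreated range, and the log2 fold change was 0.22 (SE 0.10, adjusted p = 0.148, edgeR), or 0.32 without untreated replicate 2 (adjusted p = 0.0175, edgeR). In the knockdown ATM was at 181, 189, 193, 217 and 190 CPM. These overlapped the untreated libraries through untreated replicate 2 alone, and ATM rose by 0.36 (SE 0.10, adjusted p = 0.00949, edgeR; exact permutation p = 0.0397). This rise did not pass with only the groups compared (0.36, adjusted p = 0.0608, edgeR) or with the lane as a factor (0.42, adjusted p = 0.34, edgeR).

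The size of these changes depended on which untreated libraries entered. The rise at 7 days was called without untreated replicate 2 (0.57) or 3 (0.52). Without replicate 5 ATM was changed by 0.41 at 7 days and by 0.30 in the knockdown, and without replicate 4 by 0.35 and 0.24. With both left out, a choice made after seeing the data, the values were 0.28 (adjusted p = 0.00243, edgeR) and 0.17 (adjusted p = 0.067, edgeR). Between the time points, ATM was higher at 7 days than at 1.5 h by 0.25 (SE 0.10, adjusted p = 0.0423, edgeR; exact permutation p = 0.00794). This pass was lost when any 1 library of either group was left out (adjusted p 0.0504 to 0.171, edgeR), without a filter (0.0705) and with the lane as a factor (0.223). In these fits the value lay between 0.177 and 0.263. Within lane 4 the value was 0.24 (adjusted p = 0.000622, edgeR). Between 7 days and the knockdown it differed by 0.11 (SE 0.10, adjusted p = 0.371, edgeR), by 0.22 within lane 5, where the knockdown has 1 library, and by 0.11 with these groups fitted alone (adjusted p = 0.0097, edgeR). ATM shares 143 exon bases with NPAT and 114 with C11orf65, both on the other strand in GENCODE 29, which is 0.597% and 0.476% of its exon bases. NPAT had a log2 fold change of -0.09 at 7 days (adjusted p = 0.347, edgeR) and C11orf65 was counted with at most 29 reads per library.

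Among the adaptors, RIPK1 and TRAF6 rose early. RIPK1 (ENSG00000137275), a kinase and scaffold that joins IKKγ, was at 44.9, 44.4, 46.5, 42.9 and 46.8 CPM in untreated cells and at 53.6, 53.7, 53.6, 55.8 and 53.6 CPM at 1.5 h. All libraries at 1.5 h lay above all untreated libraries, a rise by a log2 fold change of 0.26 (SE 0.039, adjusted p = 6.25e-05, edgeR; exact permutation p = 0.00794). At 7 days its levels were 41.7, 41.1, 41.4, 42.8 and 39.1 CPM, and each lay below the lowest untreated library. RIPK1 fell by 0.13 on the log2 scale at 7 days (SE 0.0397, adjusted p = 0.00747, edgeR; exact permutation p = 0.00794). This fall did not pass when libraries were scaled by their totals alone, with a log2 fold change of -0.083 (adjusted p = 0.0742, edgeR), or with the lane as a factor (-0.21, adjusted p = 0.0609, edgeR). Between 1.5 h and 7 days RIPK1 fell by 0.39 (SE 0.0395, adjusted p = 2.66e-08, edgeR; exact permutation p = 0.00794), and within lane 4 by 0.42. In the knockdown it ranged from 46.0 to 50.2 CPM, overlapping the untreated cells (log2 fold change 0.094, SE 0.0396, adjusted p = 0.0632, edgeR), and passed with upper-quartile factors (0.0161), library size alone (0.00384), without untreated replicate 5 (0.090, adjusted p = 0.0483, edgeR) and without knockdown replicate 4 (0.0464). RIPK1 shares 238 exon bases, 5.63% of its own, with an antisense gene that is not among the genes counted.

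TRAF6 (ENSG00000175104), a ubiquitin ligase that builds the chains on which TAK1 and IKK meet, was the least abundant member by CPM. It was at 26.7, 28.4, 27.4, 20.8 and 35.3 CPM in untreated replicates 1 to 5 and at 32.2, 34.5, 32.0, 34.6 and 34.4 CPM at 1.5 h. The groups overlapped only through untreated replicate 5, which stood above all libraries at 1.5 h. TRAF6 rose by a log2 fold change of 0.28 (SE 0.084, adjusted p = 0.0232, edgeR; exact permutation p = 0.0476), and by 0.37 without that library (adjusted p = 0.000145, edgeR). With the lane as a factor, a fit that rests on the same library, the value was -0.10 (adjusted p = 0.498, edgeR), and within lane 3 it was -0.11. Without untreated replicate 4, the lowest, the rise was 0.18 (adjusted p = 0.0524, edgeR) and did not pass. Neither did it pass with only the groups compared (0.30, adjusted p = 0.149, edgeR) or without replicate 2 (0.27, adjusted p = 0.055, edgeR) or 4 (0.27, adjusted p = 0.0524, edgeR) of 1.5 h. At 7 days TRAF6 was at 27.5 to 29.8 CPM (log2 fold change 0.079, adjusted p = 0.431, edgeR, or 0.15 and 0.0353 without untreated replicate 5) and in the knockdown at 26.5 to 28.0 CPM. Between 1.5 h and 7 days it fell by 0.20 (SE 0.084, adjusted p = 0.0456, edgeR; exact permutation p = 0.00794). The fall did not pass with upper-quartile factors (adjusted p = 0.0718, edgeR), library size alone (0.0556), 10 counts in every library (0.055) or the lane as a factor (0.0831), nor when any of 6 single libraries was left out (replicates 2, 4 and 5 of 1.5 h and 3, 4 and 5 of 7 days; highest adjusted p 0.0769). In these fits the log2 difference lay between -0.222 and -0.167. Within lane 4 TRAF6 fell by 0.23.

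In the TAK1 complex, TAB1 was the member that passed the test in both comparisons of irradiated with untreated cells. TAB1 (ENSG00000100324), which activates TAK1, was at 61.0, 60.7, 65.3, 60.8 and 64.3 CPM in untreated cells, at 52.6, 52.7, 52.9, 55.4 and 52.1 CPM at 1.5 h, and at 46.8, 47.0, 48.7, 48.3 and 45.4 CPM at 7 days. These 3 groups did not overlap each other. TAB1 fell by 0.23 on the log2 scale at 1.5 h (SE 0.038, adjusted p = 0.000143, edgeR; exact permutation p = 0.00794) and by 0.40 at 7 days (SE 0.038, adjusted p = 8.65e-09, edgeR; exact permutation p = 0.00794). Neither fall reached 0.5. Without untreated replicate 5 they were 0.23 and 0.41 in size. From 1.5 h to 7 days TAB1 fell by 0.17 (SE 0.038, adjusted p = 0.000578, edgeR), and by 0.21 within lane 4. In the knockdown it was at 60.3 to 63.4 CPM, overlapping the untreated cells, and at 7 days it was lower than in the knockdown by a log2 difference of -0.38 (SE 0.038, adjusted p = 2.86e-08, edgeR), or -0.39 within lane 5 with its 1 knockdown library.

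MAP3K7 (ENSG00000135341), the TAK1 kinase itself, did not pass the test in any of the 5 comparisons with all libraries and TMM factors. It ranged from 59.5 to 71.6 CPM in untreated cells, from 64.0 to 68.6 CPM at 1.5 h, from 61.1 to 66.3 CPM at 7 days and from 63.9 to 70.7 CPM in the knockdown. All log2 fold changes lay between -0.072 and 0.098, with standard errors of 0.049. The highest untreated value was that of replicate 5, and without it MAP3K7 was higher in the knockdown by 0.13 (adjusted p = 0.00834, edgeR), as it was with upper-quartile factors (0.0325) and library size alone (0.00742).

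TAB2 (ENSG00000055208), which binds ubiquitin chains for TAK1, was at 189, 175, 187, 161 and 367 CPM in untreated replicates 1 to 5. At 1.5 h it was at 178, 195, 184, 194 and 192 CPM, at 7 days at 176, 174, 178, 166 and 170 CPM, and in the knockdown at 179, 178, 175, 183 and 189 CPM. Apart from untreated replicate 5, every library lay between 161 and 195 CPM. TAB2 passed edgeR's test in none of the 5 comparisons with all libraries, TMM factors, the filter and a term per group. At 7 days against untreated cells it passed with DESeq2 (-0.33, adjusted p = 0.0475), without a filter (-0.35, adjusted p = 0.0411, edgeR), with the lane as a factor (-1.12, adjusted p = 1.37e-07, edgeR), without any 1 of untreated replicates 1 to 4 (adjusted p 0.0141 to 0.0499, edgeR) and with untreated replicates 4 and 5 both left out (-0.11, adjusted p = 0.0184, edgeR). From 1.5 h to 7 days the log2 difference was -0.12 (SE 0.15, adjusted p = 0.483, edgeR; exact permutation p = 0.0159), next to -0.13 with these groups fitted alone (adjusted p = 0.00102, edgeR) and -0.16 within lane 4 (adjusted p = 0.00396, edgeR). In the knockdown TAB2 passed without untreated replicate 4 (-0.37, adjusted p = 0.0495, edgeR). With the lane as a factor, which rests on untreated replicate 5, it also passed in the knockdown (-1.07, adjusted p = 1.98e-05, edgeR) and at 1.5 h (-0.98, adjusted p = 1.99e-08, edgeR). Its log2 fold changes against untreated cells of -0.19, -0.32 and -0.25 became 0.08, -0.061 and 0.0055 without that library. TAB2 shares 136 exon bases, 2.26% of its own, with a non-coding gene on the same strand that is not among the genes counted.

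**Figure D3:**
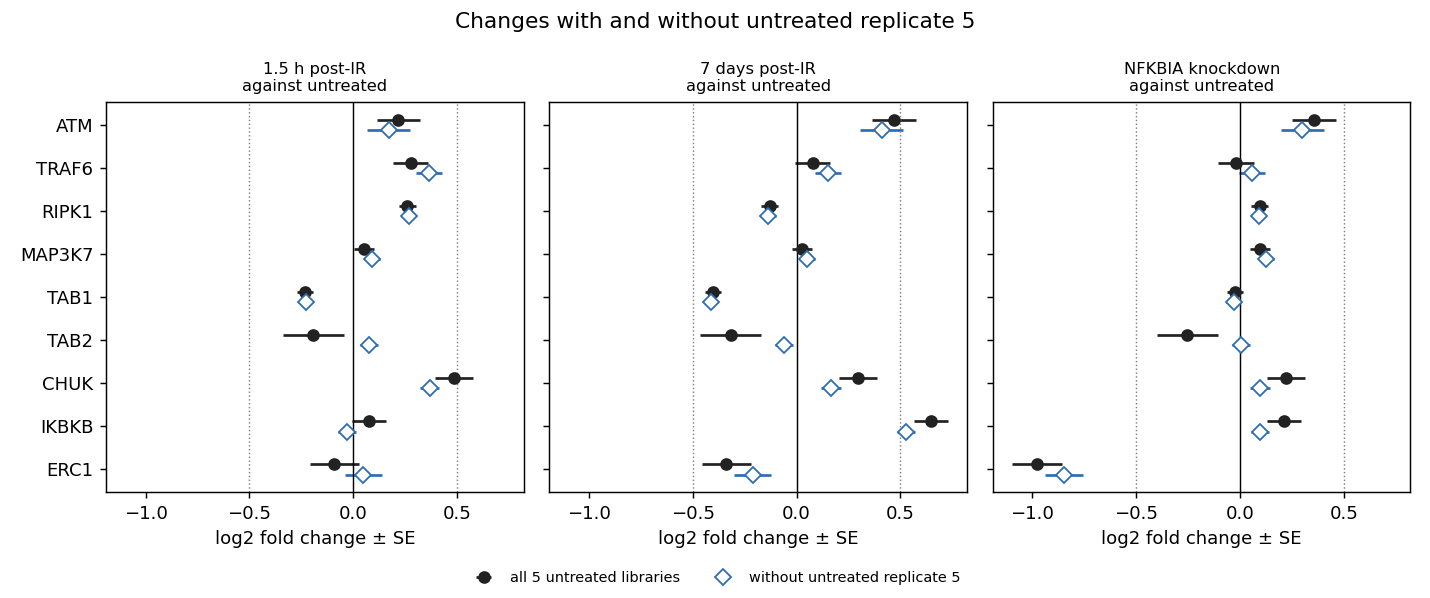
Log2 fold change with its standard error against untreated cells with all 5 untreated libraries (filled circles) and without untreated replicate 5 (open diamonds). TAB2 moved most at 1.5 h, from -0.19 to 0.08, while TAB1 and RIPK1 hardly moved.

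Of the kinases of the IKK complex, CHUK passed the test at both times after irradiation. IKBKB passed it at 7 days and, with a term per group, not at 1.5 h. CHUK (ENSG00000213341), which encodes IKKα, was at 52.0, 45.6, 46.5, 42.5 and 29.2 CPM in untreated replicates 1 to 5 and at 58.2, 64.0, 60.3, 59.4 and 60.7 CPM at 1.5 h. All libraries at 1.5 h lay above all untreated libraries. CHUK rose by a log2 fold change of 0.48 (SE 0.092, adjusted p = 0.000723, edgeR; exact permutation p = 0.00794), just under 0.5, and by 0.37 without untreated replicate 5 (SE 0.047, adjusted p = 4.34e-06, edgeR). The rise was called without untreated replicate 1 (0.56), 2 (0.50) or 3 (0.51), or without replicate 1 of 1.5 h (0.51). In lane 3, where untreated replicate 5 was the only untreated library, the value was 1.05. At 7 days CHUK was at 51.8, 52.0, 53.0, 53.6 and 55.0 CPM, overlapping the untreated cells through untreated replicate 1. It rose by 0.29 (SE 0.092, adjusted p = 0.00852, edgeR; exact permutation p = 0.0159), and by 0.17 without untreated replicate 5 (adjusted p = 0.00364, edgeR), but did not pass with only the groups compared (0.28, adjusted p = 0.0671, edgeR). In the knockdown it was at 48.9 to 53.7 CPM (log2 fold change 0.22, SE 0.092, adjusted p = 0.0605, edgeR), and without that library the value was 0.097. It passed there with upper-quartile factors (0.0467), library size alone (0.0323), the lane as a factor (0.000878) and without untreated replicate 1 (0.0121).

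Between 7 days and 1.5 h, CHUK had a log2 difference of -0.19 (SE 0.092, adjusted p = 0.080, edgeR), although every library at 7 days lay below every one at 1.5 h (exact permutation p = 0.00794). Within lane 4 it was -0.23 (adjusted p = 0.000926, edgeR). With these 2 groups fitted alone the value was -0.20 (adjusted p = 3.82e-05, edgeR). CHUK shares 37 exon bases, 0.534% of its own, with ERLIN1 on the same strand, which fell by 0.36 on the log2 scale at 7 days (adjusted p = 1.41e-05, edgeR) and by 0.75 in the knockdown (adjusted p = 3.3e-09, edgeR). CHUK also shares 77 exon bases (1.11%) with an antisense gene that is not among the genes counted.

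IKBKB (ENSG00000104365), which encodes IKKβ, was the member called higher at 7 days. It was at 40.8, 44.6, 44.3, 39.2 and 27.9 CPM in untreated replicates 1 to 5, at 39.5, 42.5, 43.4, 43.3 and 39.5 CPM at 1.5 h, and at 60.7, 61.0, 63.8, 62.3 and 61.3 CPM at 7 days. The libraries at 7 days stood above all other 15 libraries. IKBKB rose by a log2 fold change of 0.65 (SE 0.083, adjusted p = 7.75e-07, edgeR; exact permutation p = 0.00794), or 1.57-fold. Without untreated replicate 5 the rise was 0.53 (SE 0.043, adjusted p = 5.4e-10, edgeR), and with untreated replicates 4 and 5 both left out it was 0.495 (SE 0.042, adjusted p = 4.06e-10, edgeR), which ends the call at 0.5. At 1.5 h the log2 fold change was 0.077 (SE 0.083, adjusted p = 0.564, edgeR), and it was -0.028 without untreated replicate 5. With the lane as a factor, which rests on that library, IKBKB was called higher at 1.5 h (0.58, adjusted p = 4.11e-05, edgeR). Within lane 3, against that library alone, the value was 0.58.

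In comparisons without the untreated group, edgeR's SE and p still come from the fit on all 20 libraries. Exceptions are fits within lanes, with only the groups compared, or with a library left out. IKBKB was also higher at 7 days in the comparisons without the untreated group, though called only against 1.5 h. From 1.5 h to 7 days it rose by 0.57 (SE 0.083, adjusted p = 4.22e-06, edgeR; exact permutation p = 0.00794), and within lane 4 by 0.54 (adjusted p = 1.31e-06, edgeR). In the knockdown IKBKB was at 45.7, 43.7, 45.3, 46.8 and 47.0 CPM, and at 7 days it was above the knockdown by 0.44 (SE 0.083, adjusted p = 0.000125, edgeR; exact permutation p = 0.00794), and by 0.44 within lane 5, against its 1 knockdown library. Against untreated cells the knockdown value was 0.21 (SE 0.083, adjusted p = 0.0476, edgeR), next to 0.096 without untreated replicate 5 (adjusted p = 0.074, edgeR). This pass was also lost with RLE factors (0.0504), no filter (0.0884), 10 counts in every library (0.0607) and only the groups compared (0.164), and without untreated replicate 1 or 4 or knockdown replicate 1, 3, 4 or 5 (highest adjusted p 0.0843, edgeR). In the fits of this list the value lay between 0.188 and 0.226. With the lane as a factor, through untreated replicate 5, IKBKB was called higher in the knockdown (0.69, adjusted p = 0.00118, edgeR).

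The ratio of CHUK to IKBKB was also formed in each library, per length, after the values had been seen. It was 1.84, 1.48, 1.52, 1.57 and 1.52 in untreated replicates 1 to 5, 2.14, 2.18, 2.01, 1.99 and 2.23 at 1.5 h, and 1.24, 1.24, 1.20, 1.25 and 1.3 at 7 days. In the knockdown it was 1.62, 1.64, 1.58, 1.66 and 1.51. Libraries at 1.5 h lay above and those at 7 days below all untreated and knockdown libraries. Untreated replicate 5, low in both genes, was at 1.52 like replicate 3. The ratio was given no test.

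**Figure D4:**
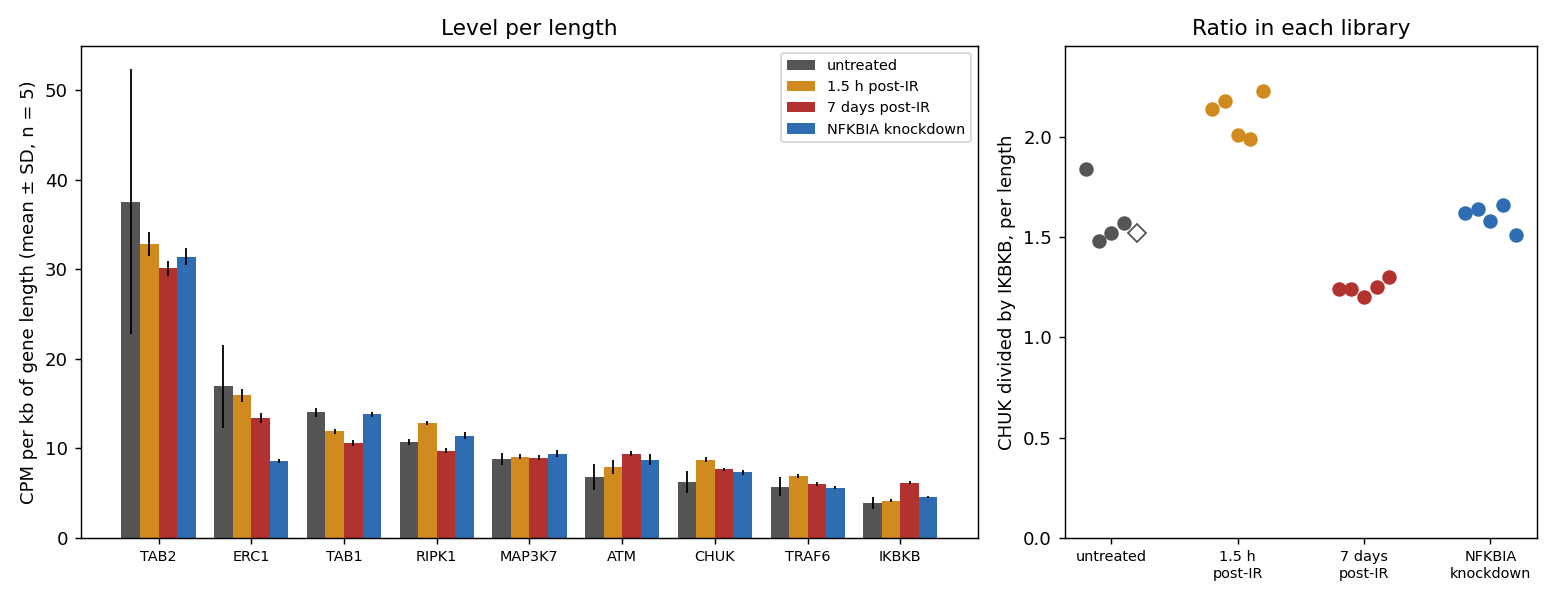
Left, level of each member in CPM per kb (mean ± SD, n = 5 libraries, bars from 0) by group; right, CHUK divided by IKBKB per length in each library, with untreated replicate 5 as an open diamond. The ratio was highest at 1.5 h (1.99 to 2.23) and lowest at 7 days (1.2 to 1.3).

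ERC1 (ENSG00000082805), a scaffold of the IKK complex, was the member called lower in the knockdown. Its levels there were 113, 115, 113, 122 and 115 CPM, compared with 199, 231, 247, 147 and 317 CPM in untreated replicates 1 to 5. Every knockdown library lay below every untreated one, and also below all libraries of irradiated cells. ERC1 fell by 0.98 on the log2 scale, to 0.508 of the untreated level (SE 0.12, adjusted p = 1.84e-06, edgeR; exact permutation p = 0.00794). Without untreated replicate 5, the highest, it fell by 0.85 (SE 0.090, adjusted p = 1.31e-07, edgeR), and without replicate 4, the lowest, it fell by 1.12. With the lane as a factor the value was -1.56, again through untreated replicate 5.

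ERC1 was also lower in the knockdown than at 7 days, a comparison without untreated libraries. At 7 days it was at 190, 168, 178, 183 and 182 CPM, above the knockdown by 0.64 (SE 0.12, adjusted p = 0.000117, edgeR; exact permutation p = 0.00794), and by 0.67 within lane 5, where the knockdown has only 1 library. At 1.5 h ERC1 was at 199, 222, 212, 221 and 217 CPM, within the untreated range, with a log2 fold change of -0.09 (SE 0.12, adjusted p = 0.648, edgeR), or 0.0495 without untreated replicate 5. At 7 days it fell by 0.34 (SE 0.12, adjusted p = 0.0183, edgeR) against untreated cells, which it overlapped (exact permutation p = 0.143), and by 0.21 without untreated replicate 5 (adjusted p = 0.0409, edgeR), but did not pass with only the groups compared (-0.36, adjusted p = 0.0768, edgeR). With the lane as a factor, through untreated replicate 5, ERC1 was called lower at 1.5 h (-0.59, adjusted p = 0.00738, edgeR) and at 7 days (-0.88, adjusted p = 0.00304, edgeR). Within lane 3, against that library alone, the value at 1.5 h was -0.59. Between 7 days and 1.5 h the log2 difference was -0.25 (SE 0.12, adjusted p = 0.0799, edgeR), although every library at 7 days lay below every one at 1.5 h (exact permutation p = 0.00794). With these groups fitted alone the value was -0.26 (adjusted p = 6.68e-06, edgeR), and within lane 4 it was -0.31 (adjusted p = 0.000176, edgeR). ERC1 shares 100 exon bases, 0.742% of its own, with an antisense gene that is not among the genes counted.

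Genes with the most similar pattern were found by the root mean square difference of log2 CPM, centred on each gene's mean, over 20 libraries. Nearest to ATM were MON2 (0.067) and WDR27 (0.080), against a median of 0.345 over all genes. For IKBKB they were EXT2 (0.068) and ACAD11 (0.074; median 0.372), and for TRAF6 PTBP3 (0.062) and PIP5K1A (0.066; median 0.303). Genes picked as nearest lie below the median by that choice, and the likeness was given no test.

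Other genes of the pathway, among them NFKBIA, the knockdown's target, were taken from 8 lists with 83 names. Of these, 79 were in the table and 78 were tested. At 1.5 h, 7.69% of them were called higher and 1.28% lower, beside 2.08% and 1.57% of all genes. At 7 days these shares were 19.2% and 5.13%, beside 16.7% and 14.4%, and in the knockdown 0% and 6.41%, beside 5.18% and 7.53%. Without untreated replicate 5 the lists gave 8 genes higher and 0 lower at 1.5 h, 11 and 4 at 7 days, and 2 and 4 in the knockdown, in place of 6 and 1, 15 and 4, and 0 and 5. Of all genes 2.17% and 1.11%, 16.4% and 14.2%, and 5.03% and 6.89% were then called higher and lower. The count of 0 called higher in the knockdown with edgeR was also 0 at an unadjusted p and 0 with DESeq2.

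Upstream of the members, the 12 damage sensors and ATM partners tested had median log2 fold changes of -0.035, -0.19 and -0.069 at 1.5 h, at 7 days and in the knockdown, which became 0.072, -0.23 and -0.042 without untreated replicate 5. RAD50 was then called higher at 7 days and in the knockdown, by 0.54 in each. H2AFX, the histone that ATM marks at breaks, fell by 1.61 at 7 days (SE 0.13, adjusted p = 7.41e-10, edgeR) and by 0.87 in the knockdown (SE 0.13, adjusted p = 1.39e-05, edgeR). At 1.5 h its fall of 0.55 was 0.39 without untreated replicate 5, under the threshold. MDC1, which binds that mark, fell by 1.11 at 7 days, and by 0.56 without untreated replicate 5 (adjusted p = 4.2e-07, edgeR). In the SUMO and PARP1 branch, which modifies IKKγ, 9 genes were tested, and the 1 called with edgeR was PIDD1 at 7 days, higher by 0.99 (SE 0.078, adjusted p = 5.66e-10, edgeR). Of all genes, 16.7% were called higher and 14.4% lower at 7 days. IPO3 of that list is not analysed here.

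At the level of the adaptors, BIRC3, a ubiquitin ligase bound by TRAF proteins, had the largest rise of its list, by 1.5 at 1.5 h (SE 0.083, adjusted p = 4.04e-11, edgeR) and 1.66 at 7 days (SE 0.083, adjusted p = 3.45e-13, edgeR). It fell by 0.72 in the knockdown (SE 0.084, adjusted p = 8.45e-07, edgeR), the 1 call of 14 genes tested there, where 7.53% of all genes were called lower. SQSTM1, which binds TRAF6 and shares 20.7% of its exon bases with MRNIP on the other strand, rose by 1.23 at 7 days (SE 0.080, adjusted p = 2.5e-11, edgeR). XIAP, the other gene called at 7 days, rose by 0.51, by 0.46 without untreated replicate 5, and was not called with DESeq2. Of 10 other kinases of the IKK and TAK1 level tested, 0 were called at 1.5 h or in the knockdown with edgeR, 0 at an unadjusted p and 0 with DESeq2. Of all genes, 2.08% were called higher and 1.57% lower at 1.5 h, and 5.18% and 7.53% in the knockdown. The shares at 7 days were 16.7% and 14.4%. At 7 days MAP2K6, a kinase that TAK1 phosphorylates, fell by 3.03 (SE 0.19, adjusted p = 1.32e-11, edgeR), from 2.39 ± 0.515 to 0.295 ± 0.0678 CPM (SD, n = 5), on 7 to 12 counts per library. MAP2K3, its close relative, rose by 0.54 (SE 0.070, adjusted p = 8.71e-07, edgeR), and by 0.45 without untreated replicate 5. IKBKE and MAP3K14 are not analysed here.

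Of the brakes on the pathway, 11 were tested, and 3 were called higher at 1.5 h, 4 at 7 days and 0 in the knockdown with edgeR (0 at an unadjusted p, 0 with DESeq2), where 2.08%, 16.7% and 5.18% of all genes were. The phosphatase gene PPM1D rose by 1.38 at 1.5 h (SE 0.058, adjusted p = 4.16e-13, edgeR) and by 0.70 at 7 days, and TNFAIP3, the gene of the A20 deubiquitinase, by 1.41 and 0.55. ZC3H12A, an RNase gene, rose by 0.88 and 0.73. CYLD, a deubiquitinase that acts on TRAF6, joined them at 7 days with 0.91 (SE 0.074, adjusted p = 7.51e-10, edgeR). In the knockdown TNFAIP3 fell by 0.52 (SE 0.096, adjusted p = 0.000203, edgeR), and by 0.42 without untreated replicate 5, under the threshold. OTUD7B is not analysed here.

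Downstream, all 8 IκB and NF-κB genes were tested, among them NFKBIA, the target of the knockdown. Their median log2 fold change was 0.33 at 1.5 h, 0.25 at 7 days and -0.25 in the knockdown, where the medians of all genes tested were -0.026, 0.012 and -0.008. The medians of these 8 genes without untreated replicate 5 were 0.25, 0.40 and -0.074. REL was then called higher at 1.5 h, where 2.17% of all genes were. At 7 days 2 genes in place of 3 were called higher, where 16.4% in place of 16.7% of all genes were. NFKBIE rose by 0.84 at 1.5 h (SE 0.077, adjusted p = 8.27e-08, edgeR) and by 0.56 at 7 days. RELB rose by 0.66 at 7 days (SE 0.12, adjusted p = 4.86e-05, edgeR) and fell by 0.51 in the knockdown (SE 0.12, adjusted p = 0.00182, edgeR). Of the 7 genes of the ubiquitin ligase for IκB, RBX1 was called lower at 7 days (-0.51, SE 0.12, adjusted p = 0.00112, edgeR), where 14.4% of all genes were. No other gene of this list was called with all libraries. UBE2D1 was, without untreated replicate 5, called higher at 1.5 h (0.64) and in the knockdown (0.59). Of 9 genes of the RIPK1 death complex 8 were tested, and 4 were called higher at 7 days, where 16.7% of all genes were (2 without untreated replicate 5, where 16.4% were), with MLKL at 1.04 (SE 0.087, adjusted p = 1.32e-09, edgeR), PIDD1 as above, and TRADD and CRADD at 0.54 and 0.53. TRADD and CRADD were at 0.42 and 0.44 without untreated replicate 5. RIPK3, the partner of RIPK1 in necroptosis, had at most 1 count in any library.

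**Figure D5:**
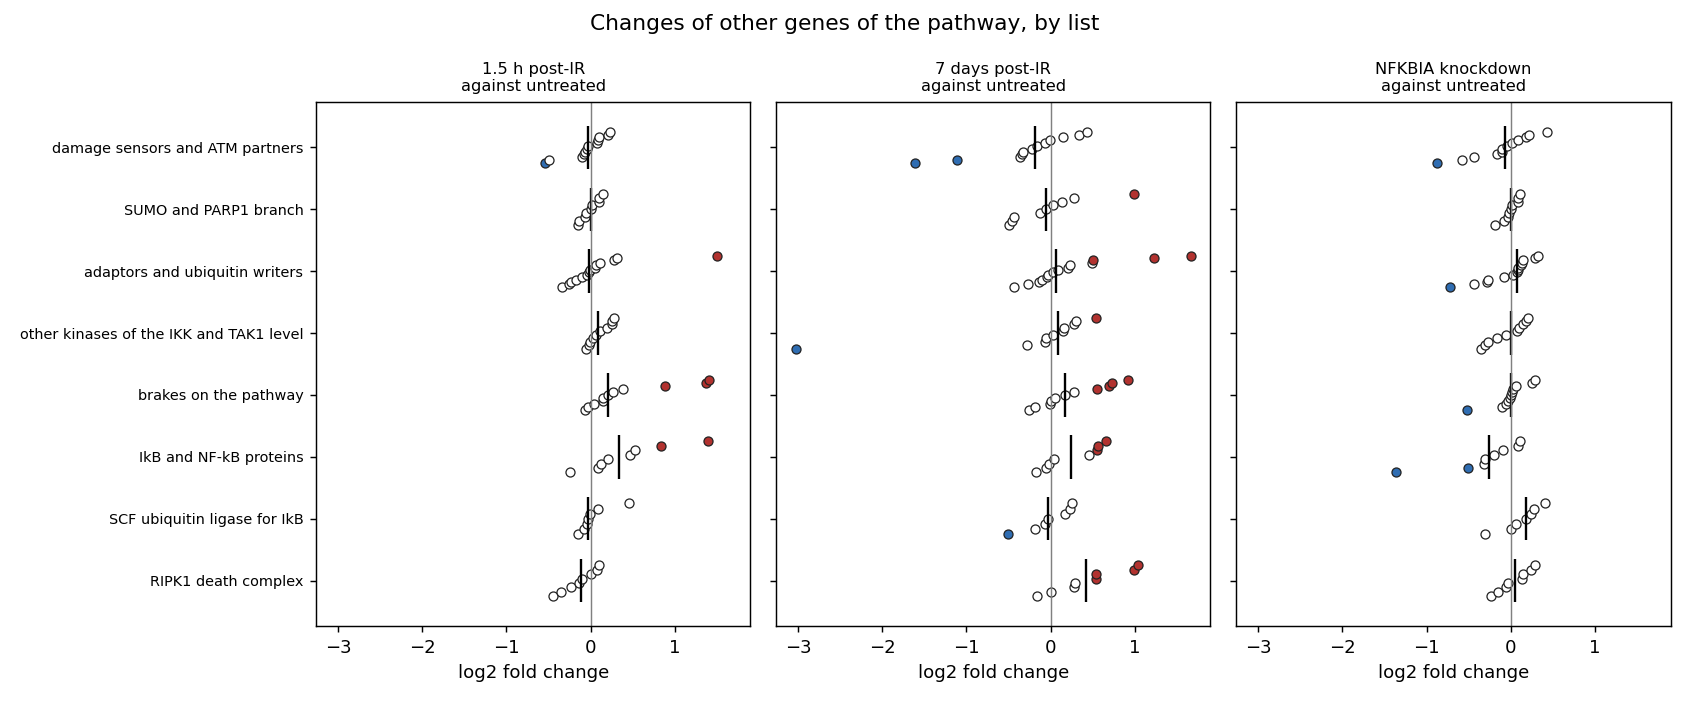
Log2 fold change of each gene tested of the 8 lists (points, spread vertically for display) against untreated cells, with the list's median as a vertical line; red points were called higher and blue points lower. Brakes on the pathway hold 3 red points at 1.5 h, and the lowest point at 7 days is MAP2K6 at -3.03.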

How the data were processed

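RNA-seq of U2-OS cells was read from the table of counts per gene that the authors deposited, with a gene length in bases (width) per gene. By the submitters' processing notes, reads were split with bcl2fastq, trimmed with Trimmomatic and aligned to hg19 with STAR 2.4.2a. The counting program, its annotation and its strand setting are not given in the sources used here. The methods name stranded mRNA libraries on a HiSeq 2000 and RNA isolated with Trizol. The table held 20314 genes in 20 libraries, 5 in each of 4 groups, with total counts from 22535659 to 40390961. Of these genes 0 lacked an identifier and 1679 had no symbol.

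Genes were kept by edgeR's filter with a minimum count of 10, scaled with TMM factors and tested with edgeR's quasi-likelihood test (edgeR 4.0.16, R 4.3.3) on all 20 libraries with a term per group. Adjusted p values follow Benjamini and Hochberg over all genes tested. A gene passed the test at an adjusted p under 0.05 and was called when the log2 fold change also exceeded 0.5 in size. Standard errors were derived from the F statistic, and log2 CPM used a prior count of 2. Members were also compared by an exact two-sided permutation test of the group means of log2 CPM, 0.00794 being its smallest p. The procedure was also run on simulated counts. These had the same spread for every gene and no lane effect or outlying library, unlike the untreated libraries here. Figures were drawn with matplotlib 3.10.9. Exon overlaps were read from GENCODE 29 by gene identifier, and promoters from RefSeq on GRCh38.p14, a build other than that of the alignment.

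The members and gene lists were chosen with earlier results of these data known. Named are all 10 members, at most 4 called genes per list with the largest changes, the 2 genes nearest in pattern to ATM, IKBKB and TRAF6, and NFKBIA, CDKN1A and MKI67 as context. Genes sharing exon bases with a named gene, RIPK3, RAD50, REL, UBE2D1 and the single marker genes were named outside that rule after their values were seen. IKBKG was matched by no symbol and is not analysed here. Alternatives were RLE, upper-quartile and library size scaling, DESeq2 1.42.0, no filter, 10 counts in every library, only the groups compared, a replicate block, the lane as a factor or within lanes, each library left out, Bonferroni adjustment and no fold threshold. Leaving out untreated replicates 4 and 5 together, and the lists without untreated replicate 5, were chosen after seeing the data.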

Additional observations from a re-analysis of the deposited data

Results flagged for a closer look

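In 5 of the 36 sets of 5 libraries (9 members in 4 groups), 1 library lay far from the other 4, by the gap to its nearest neighbour as a share of the whole range. Chance gives this in about 1 in 20 groups. TAB2 in untreated replicate 5 was highest (share 0.868; 367 CPM beside a median of 181 CPM in the other 4), and this library also stood apart over all genes. RIPK1 (0.915; 55.8 beside 53.6 CPM) and TAB1 (0.769; 55.4 beside 52.6 CPM) were highest in replicate 4 of 1.5 h post-IR. ERC1 was highest in knockdown replicate 4 (0.718; 122 beside 114 CPM). TRAF6 was lowest in replicate 3 of 7 days post-IR (0.752; 27.5 beside 29.8 CPM). The cause was not tested.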

How the results depend on the processing

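Members' log2 fold changes were recomputed under the alternatives other than Bonferroni adjustment and no fold threshold. Of these 909 values, 861 kept their direction and stayed called or uncalled, 1 was no longer called, 24 became called and 23 changed sign. Values that were never called count as kept, and gains or losses of a pass by adjusted p alone are not counted. ERC1 in the knockdown was called in all 20 alternatives (log2 fold change -1.56 to -0.85, adjusted p 1.71e-13 to 0.000944). IKBKB at 7 days was called in 19 of 20 (0.495 to 1.14, adjusted p 8.53e-14 to 0.000362). TAB1 at 7 days ranged from -0.48 to -0.36 (adjusted p 1.37e-28 to 0.000165), and RIPK1 at 1.5 h from 0.19 to 0.29 (adjusted p 3.18e-10 to 0.115, the highest within lane 3).

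With library size alone, 1 member was called higher at 1.5 h (CHUK) and 2 at 7 days (IKBKB and ATM), where 352 and 2793 of all 14992 genes were. TAB1 (0.0346) and TRAF6 (0.0422) then changed sign in the knockdown. The share of called genes that were higher in the knockdown was then 51.2%, beside 40.8% with TMM factors. With upper-quartile factors TAB1 (0.0023) and TRAF6 (0.0102) changed sign in the knockdown and MAP3K7 (0.00828) between 7 days and 1.5 h. Without a filter MAP3K7 was at -0.0111 at 7 days. With only the groups compared, 1 member was called higher at 1.5 h, where 286 of all 14514 genes were.

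With the lane as a factor, where untreated cells meet another group only through untreated replicate 5, 2 members were called higher and 2 lower at 1.5 h, 3 and 2 at 7 days, and 2 and 2 in the knockdown. All genes called were then 3820 at 1.5 h, 6188 at 7 days and 4088 in the knockdown. MAP3K7 (-0.109) and TRAF6 (-0.104) changed sign at 1.5 h, MAP3K7 (-0.0885) and TRAF6 (-0.317) at 7 days, and MAP3K7 (0.0202) between 7 days and 1.5 h. Within lane 3 MAP3K7 was at -0.115 and TRAF6 at -0.111, and within lane 4 MAP3K7 was at 0.00367.

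With each library left out in turn, log2 fold changes whose sign moved ranged, at 1.5 h, from -0.294 to 0.0775 (TAB2), -0.226 to 0.0495 (ERC1) and -0.0284 to 0.124 (IKBKB), at 7 days from -0.0125 to 0.0519 (MAP3K7) and -0.034 to 0.153 (TRAF6), and in the knockdown from -0.366 to 0.0055 (TAB2) and -0.128 to 0.0595 (TRAF6). In these fits 0 to 1 members were called higher at 1.5 h with edgeR (1 without untreated replicate 1, 2 or 3, or replicate 1 of 1.5 h) and 1 to 2 at 7 days (2 without untreated replicate 2 or 3). Of all 15043 to 15096 genes, 284 to 346 were called higher at 1.5 h and 2420 to 2630 at 7 days. The sign changed without untreated replicate 4 at 7 days and without untreated replicate 5 in the others. Without both, a choice made after seeing the data, 0 members were called higher at 7 days, as IKBKB was at 0.495, where 2479 of all 15226 genes were called higher. TAB2 (0.034) and IKBKB (-0.0617) then changed sign at 1.5 h.

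By Bonferroni adjustment 256 genes were called at 1.5 h, 899 in the knockdown, and 2506 between 7 days and the knockdown, where 0 members were higher. With no fold threshold, members called higher and lower were 3 and 1 at 1.5 h and 3 and 3 at 7 days, with 2 higher in the knockdown, 2 and 3 between 7 days and 1.5 h, and 2 and 2 between 7 days and the knockdown. All genes were then 3191, 9620, 6078, 9131 and 8609. The cause of these differences was not tested.

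With replicate numbers as a block, members passed the test in the same numbers, and TAB1 at 1.5 h was at -0.232 (adjusted p = 0.00101, edgeR). Of 30 pairs of groups and replicate sets, 2 had a correlation over 0.1, and the labels do not say that equal numbers belong together. Depth limits genes with few counts, such as MAP2K6 with 7 to 12 counts per library at 7 days, while RIPK3, SP7 and IBSP had 3 or fewer throughout.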
